A study of Rattus norvegicus with 18 samples.

Results

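Insig1, Srebf2, Stard4, Mylip, Abca1, Abcg1, Abcg5 and Abcg8, which encode proteins of sterol sensing, LDL uptake and cholesterol efflux, were examined in RNA sequencing of rat liver from control, NASH and NASH-CH animals. The genes were chosen by symbol, and these 8 were found among 32623 genes in the count tables, each in 1 row. All 8 passed the filter on low counts and were among the 12904 genes tested.

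Cells sense cholesterol in the membrane of the endoplasmic reticulum. When sterols are scarce, the carrier SCAP brings SREBP-2, the product of Srebf2, to the Golgi, where proteases release a transcription factor that raises the genes of sterol synthesis and of LDL uptake. When sterols are plentiful, INSIG proteins hold SCAP back. Oxidised sterols activate the nuclear receptor LXR, which raises genes that move cholesterol out of the cell and also raises Mylip, whose product IDOL marks lipoprotein receptors for degradation. In the liver, ABCA1 and ABCG1 load cholesterol onto HDL precursors and HDL, and ABCG5 and ABCG8 together form the transporter that puts sterols into bile.

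The animals were male Wistar rats, with 6 per group, and each library came from a separate rat. Control rats were fed standard chow and drank normal water for 12 weeks. NASH (non-alcoholic steatohepatitis) was induced over 10 weeks, with 6 weeks of inhaled CCl4, a hepatotoxin, and phenobarbital in the drinking water, followed by 4 weeks on a diet rich in fat and cholesterol. NASH-CH rats, in which the protocol aims at cirrhosis, received CCl4 and phenobarbital for all 24 weeks, with the diet added for the final 16 weeks. Control rats thus match neither group in duration, the NASH rats had a period without CCl4 before sampling that the NASH-CH rats did not have, and the effects of diet, toxin and drug cannot be told apart. Both disease groups were set against the same 6 control rats, so these comparisons are not independent.

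Total counts per library ran from 19498534 to 27174015 in control rats, from 20827770 to 29491947 in NASH rats and from 44680344 to 60117822 in NASH-CH rats. The NASH-CH libraries were all deeper than the others, so that sequencing depth, or a run tied to it, cannot be told apart from the group. Levels are given as CPM, counts scaled to a common library size, with totals corrected for composition by the TMM method. Liver identity was checked on 8 hepatocyte markers, all detected in every group, whose summed level ran from 103700 to 148600 CPM in control, from 68970 to 110200 CPM in NASH and from 52790 to 109700 CPM in NASH-CH rats. In whole tissue, fewer cells of a type and less RNA per cell cannot be told apart.

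The promoters of 3 of the genes are shown because much of what follows is about Srebf2 and Insig1, which belong to the sterol feedback loop, and about the Abcg5 and Abcg8 pair. Sequences are the RefSeq windows of the GRCr8 build, from 250 bases before to 50 bases after the annotated start, whereas the counts were made on Rnor_6.0. Of the 8 genes, 6 had a window in the table, and Stard4 and Abcg1 had none. In Srebf2, at chr7:115543057-115543356 on the plus strand, capitals mark TCACCCCA, letters of the sterol regulatory element to which SREBP-2 binds. In Insig1, at chr4:8057720-8058019 on the minus strand, capitals mark TCACCC read on the opposite strand and the E-box CACGTG. In Abcg5, at chr6:15717686-15717985 on the plus strand, capitals mark the 205 bases that separate its start from the start of Abcg8, which is read in the other direction.
Srebf2: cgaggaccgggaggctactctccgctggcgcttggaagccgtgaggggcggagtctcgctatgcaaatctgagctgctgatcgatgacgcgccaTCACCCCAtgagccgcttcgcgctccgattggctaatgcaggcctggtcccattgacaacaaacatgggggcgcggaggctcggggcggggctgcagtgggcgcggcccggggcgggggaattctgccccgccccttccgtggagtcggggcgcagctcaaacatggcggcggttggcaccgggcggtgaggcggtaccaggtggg
Insig1: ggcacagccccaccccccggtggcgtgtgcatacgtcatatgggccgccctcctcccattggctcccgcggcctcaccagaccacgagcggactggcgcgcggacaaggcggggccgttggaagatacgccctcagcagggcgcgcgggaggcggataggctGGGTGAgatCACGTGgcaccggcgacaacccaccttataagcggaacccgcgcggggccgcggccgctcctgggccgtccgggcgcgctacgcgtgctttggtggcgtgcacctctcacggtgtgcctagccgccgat
Abcg5: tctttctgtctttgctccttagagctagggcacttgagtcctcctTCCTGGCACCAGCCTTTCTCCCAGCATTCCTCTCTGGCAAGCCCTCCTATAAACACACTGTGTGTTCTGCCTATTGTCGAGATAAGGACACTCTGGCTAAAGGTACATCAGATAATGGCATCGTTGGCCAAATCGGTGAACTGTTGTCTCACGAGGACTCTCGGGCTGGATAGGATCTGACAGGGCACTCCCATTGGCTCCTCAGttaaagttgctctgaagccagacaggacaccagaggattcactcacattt
The windows of Abcg5 and Abcg8 thus share 295 of their 300 bases.

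With both strands searched, TCACCCCA was found in 1 of the 6 windows, that of Srebf2, where it began 156 bases before the start, and in 1.37% of all 33469 promoter windows. The shorter TCACCC, which lies inside it, was found in Srebf2 and Insig1 and in 15.3% of all windows. CACGTG was found in Insig1 and Abca1 and in 6.42% of all windows. The CCAAT box was found in 5 of the 6 windows and in 37.5% of all windows, and the GC box GGGCGG in 4 of the 6 and in 33.1% of all windows. For CCAAT, the matches of Abcg5 and Abcg8 are the same site in their shared bases, so it is counted for both. AGGTCA, a unit bound by many nuclear receptors, was found in none of the 6 and in 16.2% of all windows, which says only that these letters are not in these windows. These matches are letters in a window and no evidence of binding.

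When NASH was compared with control, none of the 8 genes passed the test (limma-voom, Benjamini-Hochberg adjusted over all genes tested, threshold 0.05), where 3.12% of all tested genes did. Unadjusted p was under 0.05 for 2 of them, Insig1 and Abcg1, edgeR called 0 and DESeq2 called 1, Insig1. When NASH-CH was compared with control, Mylip and Abcg1 were higher and the other 6 did not pass. These 2 of 8 genes (25%) compare with 17% of all tested genes. When NASH-CH was compared with NASH, none of the 8 passed, none had an unadjusted p under 0.05 and neither edgeR nor DESeq2 called any, where 4.2% of all tested genes were called. With 8 genes, such counts stay close to the background. The median log2 fold change of the 8 genes was 0.10 in NASH-CH against control, beside 0.01 over all genes tested.

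**Figure D1:**
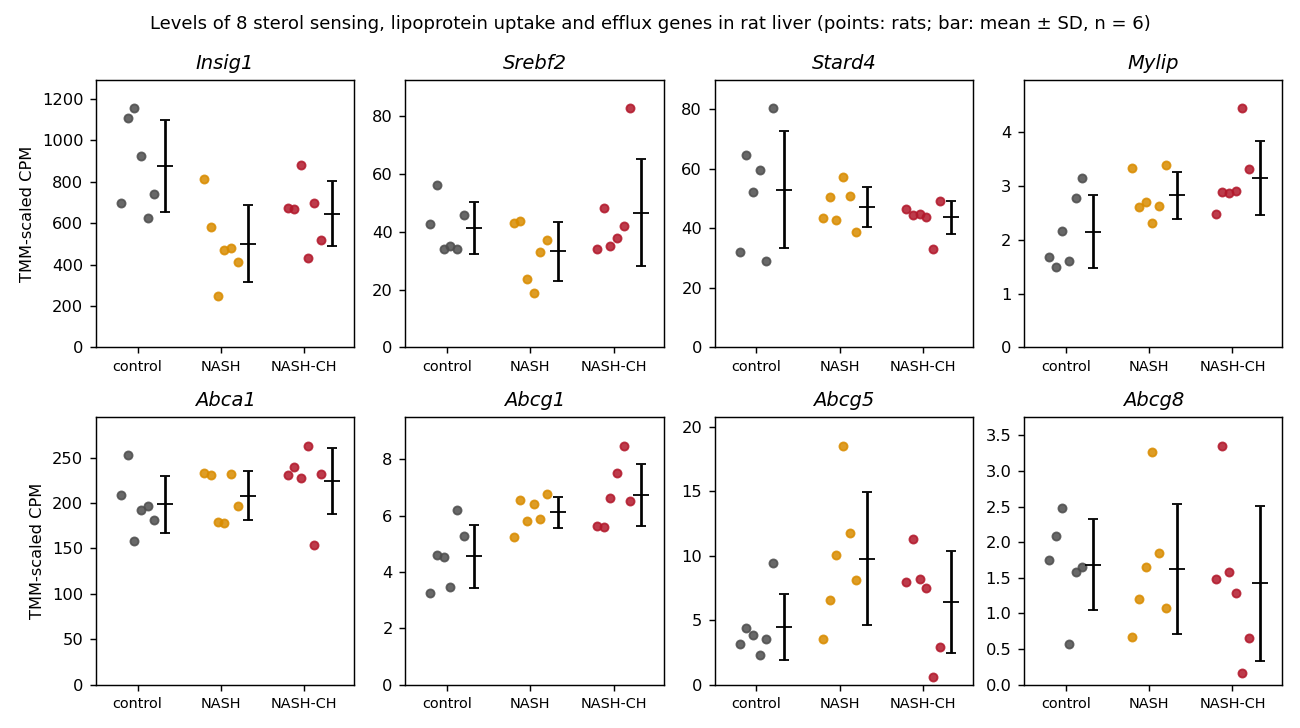
Level of each gene in each rat, in TMM-scaled CPM on a linear axis from 0, with 1 point per rat and a bar for the mean ± SD of the 6 rats of a group. In Insig1, 5 of the 6 NASH rats lie below every control rat, and the Abcg5 and Abcg8 rats are widely spread in every group.

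**Figure D2:**
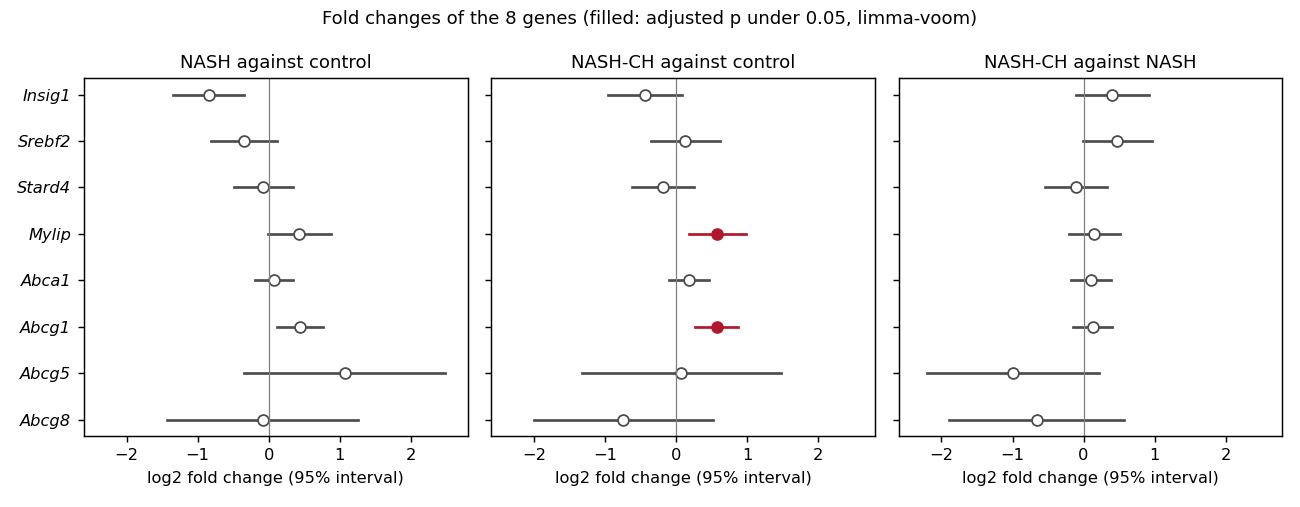
Log2 fold change of each gene with its 95% interval in the 3 comparisons, where filled points passed the adjusted threshold of 0.05. Filled points are seen for Mylip and Abcg1 in NASH-CH against control, and the intervals of Abcg5 and Abcg8 are the widest.

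Among the genes of sterol sensing, Insig1 (ENSRNOG00000006859), whose product retains SCAP and which is itself raised by SREBP, was examined first. Its level ran from 625.5 to 1153 CPM in control rats with a median of 832.6, from 248.7 to 810.9 CPM in NASH rats with a median of 475.8, and from 430.7 to 881.4 CPM in NASH-CH rats with a median of 671.4. All but 1 of the 6 NASH rats lay below every control rat, and the exception, NASH rat 1, lay within the control range. The log2 fold change was -0.85 ± 0.24 (SE) in NASH, or 1.80-fold lower, with an adjusted p of 0.0579 (limma-voom), so it missed the threshold. It passed with DESeq2 (adjusted p = 0.0149), with limma sample quality weights (0.0243), without NASH rat 1 (0.0301) and without control rat 6 (0.0433). In NASH-CH rats the value was -0.44 ± 0.25, with an adjusted p of 0.238, and only 2 rats lay below every control rat. Of the 8 hepatocyte markers, 0 passed in NASH with limma-voom or edgeR, where 3.12% of all genes tested passed. There, 2 had an unadjusted p under 0.05, and 1 was lower by DESeq2 or with sample quality weights. In NASH-CH 1, Alb, was lower, where 17% of all genes tested passed. No marker was called lower with the groups fitted alone or without control rat 1, control rat 5 or NASH-CH rat 6. With library size only, 2 were higher and 1 was lower. The median log2 fold changes of the markers were -0.13 in NASH and -0.03 in NASH-CH, and their part in the Insig1 values was not tested.

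Srebf2 (ENSRNOG00000007400) ran from 33.82 to 56.1 CPM in control rats (median 38.89), from 18.91 to 43.79 CPM in NASH rats (median 35.02) and from 34.14 to 82.51 CPM in NASH-CH rats (median 39.82). The groups overlapped in every comparison, and NASH-CH rat 6 stood above the other 17 rats. The log2 fold change was -0.35 ± 0.22 in NASH and 0.13 ± 0.23 in NASH-CH, with adjusted p of 0.385 and 0.741. Between NASH-CH and NASH it was 0.48 ± 0.23, with an adjusted p of 0.297. Without NASH-CH rat 6, the NASH-CH value against control turned to -0.046.

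Stard4 (ENSRNOG00000020468) encodes a soluble carrier that moves cholesterol between membranes and is an SREBP-2 target. Its level ran from 29.11 to 80.21 CPM in control rats (median 55.76), from 38.84 to 57.2 CPM in NASH rats (median 46.86) and from 33.08 to 49.27 CPM in NASH-CH rats (median 44.66). The control rats were spread on both sides of the disease groups, with a coefficient of variation of 37.2% against 14.3% in NASH and 12.7% in NASH-CH. The log2 fold changes of -0.07 ± 0.20 and -0.18 ± 0.21 did not pass (adjusted p = 0.866 and 0.579). Their 95% intervals ran from -0.49 to 0.34 and from -0.62 to 0.25, and with library size as the only scaling both values turned above 0, to 0.14 and 0.059.

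Mylip (ENSRNOG00000017579), the LXR target whose product IDOL is a ubiquitin ligase for lipoprotein receptors, had few counts in all groups. It ran from 1.504 to 3.155 CPM in control rats (median 1.93, 27 to 88 counts), from 2.31 to 3.38 CPM in NASH rats (median 2.67) and from 2.48 to 4.44 CPM in NASH-CH rats (median 2.90, 124 to 342 counts). All 6 NASH-CH rats lay above the control mean, but only 2 lay above every control rat. Mylip was 1.496-fold higher in NASH-CH (log2 fold change 0.58 ± 0.19, adjusted p = 0.0455). The call did not hold when the NASH rats were left out of the fit (adjusted p = 0.0990), nor in 10 of the 12 fits that left out 1 rat, where it was kept only without control rat 6 or NASH-CH rat 1. In NASH the value was 0.43 ± 0.21 with an adjusted p of 0.248.

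Of the cholesterol exporters, Abca1 (ENSRNOG00000018126), which transfers cholesterol to lipid-poor apolipoprotein A-I, had 3133 to 13198 counts per rat. It ran from 158.1 to 252.6 CPM in control rats (median 194.6), from 177.5 to 233.4 CPM in NASH rats (median 214.1) and from 153.9 to 263 CPM in NASH-CH rats (median 231). NASH-CH rat 5 was the lowest of the 18 rats while the other 5 of its group stood above the control mean. In NASH the log2 fold change was 0.08 ± 0.13 and in NASH-CH it was 0.18 ± 0.13, neither of which passed (adjusted p = 0.776 and 0.374), and their 95% intervals reached from -0.19 to 0.34 and from -0.10 to 0.46. With library size as the only scaling, under which the median over all genes in NASH-CH moved from 0.01 to 0.27, Abca1 passed in NASH-CH with 0.43 (adjusted p = 0.0239).

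Abcg1 (ENSRNOG00000001158), which exports cholesterol to HDL and is abundant in macrophages, ran from 3.24 to 6.20 CPM in control rats (median 4.57), from 5.26 to 6.76 CPM in NASH rats (median 6.15) and from 5.62 to 8.48 CPM in NASH-CH rats (median 6.58). All 6 rats of each disease group lay above the control mean, and 5 of the 6 control rats lay below every NASH-CH rat. Abcg1 was 1.49-fold higher in NASH-CH (log2 fold change 0.57 ± 0.14, adjusted p = 0.0118) and passed in all 12 fits that left out 1 rat. In NASH the value was 0.44 ± 0.15, with an adjusted p of 0.107, and the difference between NASH-CH and NASH was 0.13 ± 0.13 (adjusted p = 0.673).

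Macrophage markers were read beside Abcg1. Of the 12 tested, 3 were higher in NASH-CH than in control (Trem2, Gpnmb and Lyz2) and 6 were lower (Marco, Cd5l, Clec4f, Vsig4, Cd163 and Csf1r). These 9 of 12 compare with 17% of all genes tested. The 6 lower markers became 2 with library size only and 4 with the groups fitted alone or with sample quality weights. There were also 4 without control rat 1, control rat 4, NASH-CH rat 3 or NASH-CH rat 5, and 3 without control rat 3, control rat 5 or NASH-CH rat 6. The number rose to 7 with edgeR and without control rat 6 or NASH-CH rat 1, and to 8 with DESeq2 or without a filter on low counts. In NASH, Gpnmb was higher and Marco was lower. The summed macrophage level ran from 321.9 to 576.1 CPM in control, from 260.6 to 368 CPM in NASH and from 259.1 to 423.5 CPM in NASH-CH rats, with medians of 361.7, 290.9 and 342.7 CPM. No marker in the tables was at 0 in every rat of a group.

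Markers of other cells were read in NASH-CH as well, where Abcg1 and Mylip were higher and 17% of all genes tested passed against control. Of 8 stellate and myofibroblast markers, 4 were higher than in control (Rgs5, Col1a1, Tagln and Des), 1 was lower (Lrat) and the median log2 fold change was 0.76, with a summed level from 275.5 to 369.7 CPM in control, from 226.7 to 305 CPM in NASH and from 279 to 428.1 CPM in NASH-CH rats. In NASH, 1 of these 8 was higher than in control and 1 was lower, where 3.12% of all genes tested passed. Of 7 endothelial markers, 1 was higher in NASH-CH than in control (Vwf), and their median was -0.10. The endothelial sums ran from 204 to 284.5 CPM in control, from 266 to 302.6 CPM in NASH and from 165.5 to 297 CPM in NASH-CH rats. None of the 3 cholangiocyte and 3 lymphocyte markers tested passed against control in either disease group with limma-voom, although edgeR and DESeq2 each called 1 cholangiocyte marker higher in NASH-CH. The cholangiocyte sum was taken over 5 genes, including those not tested. It ran from 7.722 to 9.897 CPM in control, from 6.017 to 11.82 CPM in NASH and from 5.896 to 39.38 CPM in NASH-CH rats. The medians were 9.242, 7.081 and 13.4 CPM. The part of any cell type in the Abcg1 and Mylip values was not tested.

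Abcg5 (ENSRNOG00000005250) and Abcg8 (ENSRNOG00000005420) showed the widest spread. Abcg5 ran from 2.31 to 9.47 CPM in control rats (median 3.68), from 3.52 to 18.5 CPM in NASH rats (median 9.10) and from 0.597 to 11.3 CPM in NASH-CH rats (median 7.74). Abcg8 ran from 0.579 to 2.47 CPM in control rats (median 1.70), from 0.669 to 3.27 CPM in NASH rats (median 1.43) and from 0.169 to 3.35 CPM in NASH-CH rats (median 1.38). Counts of Abcg8 were as low as 13 to 15 in the lowest rat of each group, so part of its spread is counting error. The lowest level of both genes was in the same animal, NASH-CH rat 5.

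The level of Abcg5 was 1.07 ± 0.68 higher on the log2 scale in NASH than in control, which did not pass (adjusted p = 0.378), and the 95% interval ran from -0.35 to 2.48. The corresponding value of Abcg8 was -0.09 ± 0.64 (adjusted p = 0.954). In NASH-CH the values were 0.08 ± 0.67 for Abcg5 and -0.74 ± 0.60 for Abcg8 (adjusted p = 0.950 and 0.415). Changes of more than 2-fold in either gene lie within these intervals, so differences of that size were not detectable with this spread.

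The balance of both genes was read as the log2 ratio of Abcg5 to Abcg8 counts within each rat, in which library scaling cancels out. The ratio is not corrected for transcript length, so only its difference between groups is read. Abcg5 counts were 1.55 to 5.74 times those of Abcg8 in control rats, 5.27 to 7.56 times in NASH rats and 3.38 to 5.83 times in NASH-CH rats. Among control rats, 4 had ratios below those of every rat in both disease groups, while control rats 4 and 6 lay higher, at 4.0 and 5.74. The NASH rats were close together although their Abcg5 levels differed widely.

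On the log2 scale, control rats had a mean ratio of 1.38 ± 0.73 (SD, n = 6), NASH rats one of 2.59 ± 0.19 and NASH-CH rats one of 2.18 ± 0.33. It was 1.21 ± 0.31 (SE) higher in NASH than in control (two-sided exact permutation test, p = 0.00866, adjusted p = 0.0260 over 3 comparisons), and all 6 NASH rats lay above the control mean. It was 0.80 ± 0.33 higher in NASH-CH than in control (exact permutation p = 0.0433, adjusted p = 0.0433). Between NASH-CH and NASH the difference was -0.41 ± 0.15 (exact permutation p = 0.0216, adjusted p = 0.0325), and all 6 NASH-CH rats lay below the NASH mean. The smallest p that 6 rats against 6 can give is 0.00216. The NASH call was lost without NASH rat 5 (adjusted p = 0.0519) or NASH rat 6 (0.0563), as was the call between NASH-CH and NASH (adjusted p = 0.0519 and 0.0563), which was also lost with 1 added to CPM (0.0974). The NASH-CH call against control held in only 4 of the 12 fits that left out 1 rat.

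**Figure D3:**
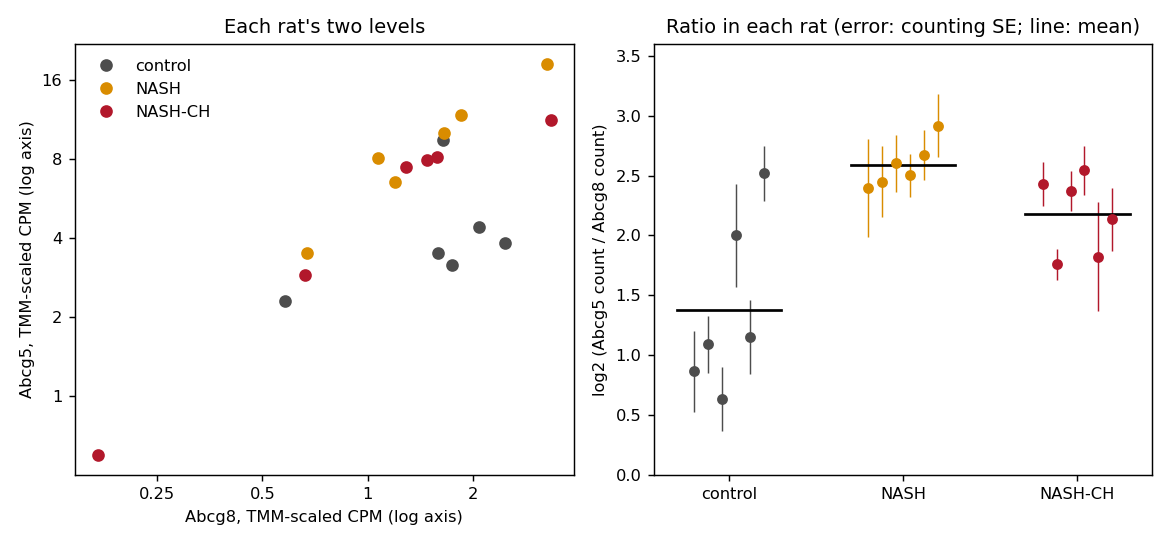
Left, the Abcg5 level of each rat against its Abcg8 level, both in TMM-scaled CPM on log axes. Right, the log2 ratio of Abcg5 to Abcg8 counts in each rat with its counting standard error, where horizontal lines are the means of the control (1.38), NASH (2.59) and NASH-CH (2.18) rats. The levels rise together, and 4 of the 6 control rats have ratios below all rats of both disease groups.

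To describe how the 8 genes vary together between rats of the same group, log2 CPM values were set relative to the group mean and correlated over the 18 rats. Of 28 pairs, only Abcg5 and Abcg8 passed after adjustment, with a Pearson r of 0.90 (permutation within groups, p = 5e-05, adjusted p = 0.0014) and a Spearman rho of 0.83 (permutation p = 0.00029, adjusted p = 0.00812). Without the 2 rats farthest from the median, r was 0.78. Within groups, r was 0.47 among control rats and 0.97 among NASH rats, as it was among NASH-CH rats. With library size as the only scaling, 3 pairs passed, of which this was 1. The other 2 were Srebf2 with Abca1 (r = 0.65, permutation adjusted p = 0.0296) and Mylip with Abcg1 (r = 0.76, permutation adjusted p = 0.021).

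Sterol synthesis enzymes, whose genes SREBP-2 raises, were read beside Srebf2. In NASH, 15 of 19 were lower than in control and 4 did not pass, where 1.54% of all genes tested were lower. The median log2 fold change was -1.49 beside 0.01 over all genes tested. The largest changes were in Mvd (-2.56 ± 0.43, adjusted p = 0.00562), Acat2 (-2.54 ± 0.39, 0.00431), Fdps (-2.01 ± 0.36, 0.00829) and Idi1 (-1.97 ± 0.46, 0.0280), enzymes of the mevalonate pathway and of the condensation steps before and after it. In NASH-CH, 8 of 19 were lower with a median of -0.85, where 8.6% of all genes tested were lower. Acat2 (-1.84 ± 0.32, adjusted p = 0.000862), Mvd (-1.81 ± 0.34, 0.00152), Idi1 (-1.67 ± 0.46, 0.0192) and Hmgcs1 (-1.40 ± 0.44, 0.0371) led. None passed between NASH-CH and NASH with limma-voom or edgeR, although 6 had an unadjusted p under 0.05. All 19 values were above 0 there, with a median of 0.49. In that comparison 1 was higher with DESeq2, 1 with the replicate block, 2 without a filter on low counts and 1 without NASH rat 1 or NASH-CH rat 4. Leaving out 1 rat gave 8 to 16 enzymes in NASH and 6 to 9 in NASH-CH, with 8 of them in NASH without control rat 1, control rat 4, NASH rat 3 or NASH rat 5, and 10 without control rat 3. Srebf2 itself moved by -0.35 and 0.13 in NASH and NASH-CH against control, as given above, and did not pass in either. The protein and activity of SREBP-2 were not measured, and the cause of the enzyme changes was not tested.

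Within groups, Srebf2 was the gene of the 8 that varied most closely with these enzymes. Its correlation was above 0 with all 19, with a median r of 0.76 over 18 rats and a range from 0.11 with Pmvk to 0.90 with Hsd17b7. The median was 0.57 within control, 0.94 within NASH and 0.69 within NASH-CH rats, and 0.81 without NASH-CH rat 6. Likeness was searched among tested genes of at least 1 CPM on average whose symbol is not a placeholder. The 3 of these genes most like Srebf2 were all of this list, Hsd17b7 (r = 0.90), Lss (0.87) and Mvk (0.86). The enzymes share a pathway and the libraries, so these correlations are a description and carry no p. The values within groups and without named rats were added after the data were seen.

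Insig1 was above 0 with all 19 enzymes as well, with a lower median r of 0.41, which fell to 0.16 without NASH rats 1 and 3 and was -0.03 within NASH-CH rats. Abcg5 and Abcg8 were below 0 with all 19, with medians of -0.48 and -0.43. Within NASH rats these medians were -0.82 and -0.85, whereas within control rats they were -0.26 and 0.04. For Abca1 the median was 0.24, but it was 0.70 within NASH and -0.43 within NASH-CH rats. Stard4, Mylip and Abcg1 had medians of -0.10, 0.14 and -0.10, with no common sign across groups.

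**Figure D4:**
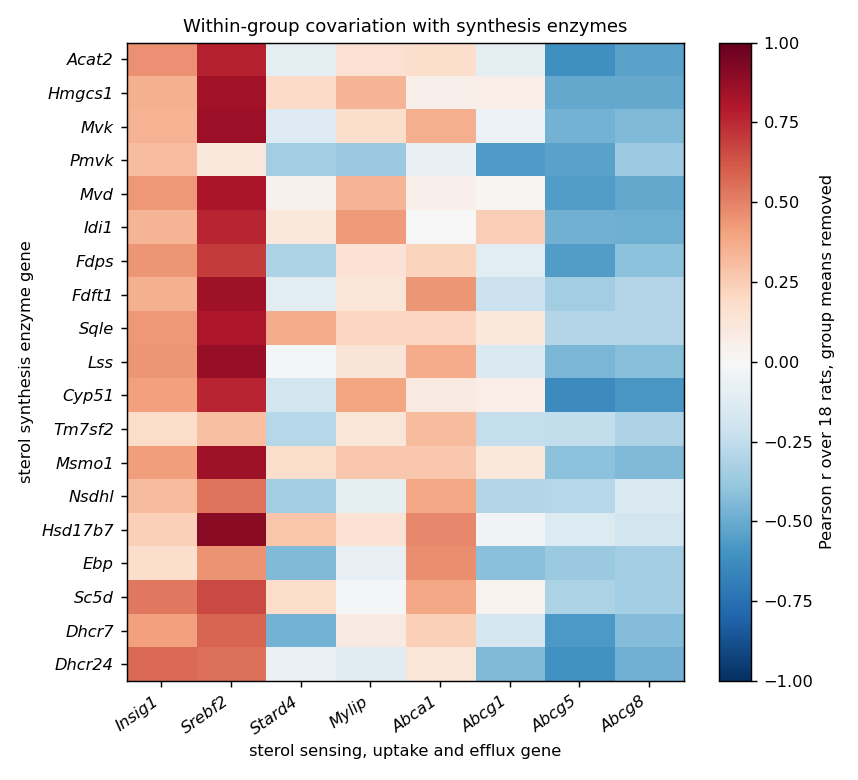
Pearson r between each of the 8 genes and each of 19 sterol synthesis enzymes over 18 rats, from log2 CPM with the group means removed, on a colour scale from -1 to 1. The Srebf2 column has a median of 0.76, and the Abcg5 and Abcg8 columns are below 0 throughout, with medians of -0.48 and -0.43.

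For the other genes, the most similar patterns over the 18 rats, by Pearson r, lay outside the synthesis list. They are the highest r among all genes searched, so high values can arise by selection, and they carry no p. Insig1 was most like Rhod (r = 0.87), Nupr1 (0.82) and Rab20 (0.79). Stard4 was most like Nr4a1, Slc38a2 and Irs2, each with an r of 0.93. Mylip was most like Ccdc82 (0.84), Arhgap30 (0.82) and Rab23 (0.80), and Abcg1 was most like Irf5 (0.81), Laptm5 (0.76) and Phf6 (0.75). For Abca1 these were Slc26a1 (0.89), Hlf (0.88) and Pdk2 (0.87). Beside each other, Abcg5 was most like Klhdc3 (0.84) and Slc17a2 (0.84), and Abcg8 was most like Ces1d (0.81) and Rspo3 (0.81).

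The machinery that processes SREBP, which includes Scap, Insig2 and the proteases, was measured with 12 genes. None passed in NASH with limma-voom, edgeR or DESeq2, and 2 had an unadjusted p under 0.05. In NASH-CH, Mbtps1, which encodes the site-1 protease, was higher (0.28 ± 0.09, adjusted p = 0.0363) and Pgrmc1, a membrane protein that binds INSIG and SCAP, was lower (-0.39 ± 0.12, 0.0291), which makes 2 of 12 beside 17% of all genes tested. With library size only, 3 of the 12 were higher and 0 were lower, and none of the 12 passed with the groups fitted alone, with the replicate block or without control rat 4, control rat 5 or NASH-CH rat 6. None of the 4 LXR and RXR receptor genes passed with limma-voom or edgeR in any comparison. An unadjusted p under 0.05 was found for 1 of them, in NASH-CH against control, and DESeq2 called 1 lower there. By contrast, 1 was called higher there with sample quality weights and without NASH-CH rat 5.

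Of 17 genes of lipoprotein uptake and intracellular sterol handling, 1 passed in NASH and 3 in NASH-CH, a share near the 17% of all genes tested in the latter. Stard5, a sterol carrier of the same family as Stard4, was lower in both (log2 scale), at -0.70 ± 0.16 in NASH (adjusted p = 0.0259) and -0.69 ± 0.15 (0.00574). With 1 rat left out, 0 of the 17 passed in NASH without control rat 1, 3, 4 or 5 or NASH rat 3, 4 or 5. Vldlr, a lipoprotein receptor that IDOL can target, was 4.02-fold higher in NASH-CH than in control (adjusted p = 0.00507) and 3.26-fold higher than in NASH (0.0188), from a control mean of 0.626 CPM. Gramd1a, which carries cholesterol from the plasma membrane, was higher in NASH-CH (0.47 ± 0.14, adjusted p = 0.0246), where 1 gene rather than 2 was higher without control rat 3 or 5. Between NASH-CH and NASH, 0 passed without NASH rat 3 or with the groups fitted alone. With at least 10 counts required in every rat, 0 passed as well, but only 15 of the 17 were tested there.

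Other LXR targets were read from a list of 8. Of 7 tested, Lpl, the lipoprotein lipase gene, and Smpdl3a, a phosphodiesterase gene, were higher in both disease groups. The log2 fold changes of Lpl were 1.58 ± 0.36 in NASH and 2.10 ± 0.37 in NASH-CH (adjusted p = 0.0260 and 0.000811), and those of Smpdl3a were 0.52 ± 0.11 and 0.56 ± 0.12 (0.0201 and 0.00379). Scd, the stearoyl-CoA desaturase gene, was lower in NASH (-4.47 ± 0.90, adjusted p = 0.0139), and its value of -2.11 ± 1.00 in NASH-CH did not pass (0.154). However, 1 of the 7 was called lower in NASH-CH against control with edgeR, with DESeq2 and without control rat 6. Against control, 5 of the 7 values were below 0 in NASH (median -0.48) and 3 in NASH-CH (median 0.12). The 3 genes called in NASH and 2 in NASH-CH compare with 3.12% and 17% of all genes tested. Between NASH-CH and NASH none of the 7 passed with limma-voom, edgeR or DESeq2 and 1 had an unadjusted p under 0.05, while all 7 values were above 0, with a median of 0.52. Scd is also an SREBP target, so it belongs to both pathways. None of the 7 was called higher in NASH without control rat 1, 3 or 4 or NASH rat 3, and 1 was without control rat 5 or NASH rat 4.

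**Figure D5:**
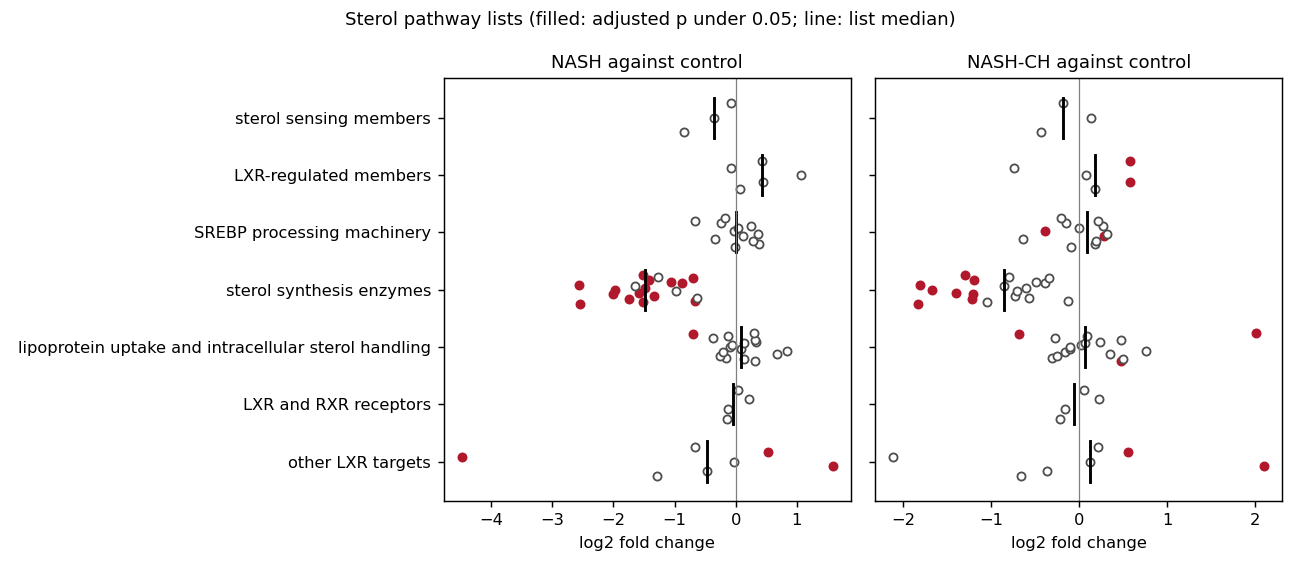
Log2 fold change against control of each gene of 7 sterol pathway lists, in NASH on the left and NASH-CH on the right, with filled points for adjusted p under 0.05 and a black line at each list's median. The synthesis enzymes are all below 0, with medians of -1.49 and -0.85, while the medians of all other lists lie between -0.48 and 0.43.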

How the data were processed

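RNA was sequenced from liver of 18 male Wistar rats, 6 per group, grouped by the group label. The authors trimmed adapters with Trim Galore, aligned reads to Rnor_6.0 with STAR and estimated gene counts with RSEM on Ensembl release 95 (tool versions not given in the sources used here), and they deposited expected counts per gene and sample. The labels name a stranded mRNA kit, and 2 different RNA extraction kits are named in the sources.

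Expected counts were rounded, genes with low counts were removed with filterByExpr, and limma-voom (limma 3.58.1, TMM factors from edgeR 4.0.16, R 4.3.3) was fitted to all 18 rats with 1 mean per group, with Benjamini-Hochberg adjustment over 12904 genes and a threshold of 0.05. Intervals of fold changes are 95% intervals. CPM values use the TMM-scaled total of the tested genes. The Abcg5 to Abcg8 ratio was compared by exact permutation of rats, and correlations by 100000 permutations within groups (SciPy 1.17.1). Likeness used log2 CPM with a prior count of 2, among tested genes of at least 1 CPM on average. Genes with placeholder symbols, such as those starting with LOC or RGD, were left out of it. The statistical scripts were tested on simulated data. The alternatives tried were the quasi-likelihood test of edgeR, the Wald test of DESeq2 1.42.0, other scalings and filters, sample weights, a replicate block and leaving out each rat.

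Total counts were 19498534 to 60117822 per library. With 13 to 154 counts, Abcg8 has the lowest mean CPM of the 8 genes in every group. Against control, however, the fold changes of Abcg5 have the larger standard errors (0.68 against 0.64 in NASH and 0.67 against 0.60 in NASH-CH). No pair of libraries of 1 group agreed within sampling noise.

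The 8 genes and all lists were chosen with earlier results of these data known. Beside the 8 genes, the text names list genes past the threshold, at most 4 per list and comparison by size of change, and the 3 genes most like each of the 8. Scap, Insig2 and the cell markers are named as members of their lists. Some genes of these pathways are not reported here.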

Additional observations from a re-analysis of the deposited data

Results flagged for a closer look

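Among the 8 genes and the Abcg5 to Abcg8 ratio, 27 groups of 6 rats were tested for a rat set apart from the rest, by its gap to the nearest rat over the range of the group (Dixon's criterion at 95%). Gene levels were tested in CPM on the linear scale. In 4 groups 1 rat stood apart, where chance flags about 1 in 20 groups of normally distributed values. On log2 CPM, the gaps of the Srebf2 and Abcg5 rats named below are smaller parts of their ranges. The gap below the other control rats of control rat 4, lowest in Abcg8, is a larger part there. The flags are thus given for linear CPM and were not tested on log2 CPM. NASH-CH rat 6 had the highest Srebf2 level of its group, at 82.51 CPM, with the next at 48.12 CPM. NASH-CH rat 5 had the lowest Stard4 level of its group, at 33.08 CPM, and the lowest Abca1 level, at 153.9 CPM. Control rat 6 had the highest Abcg5 level of its group, at 9.466 CPM, and also the highest ratio of Abcg5 to Abcg8 among control rats.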

How the results depend on the processing

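Over the settings other than leaving out a rat, 230 of 240 log2 fold changes of the 8 genes kept their direction and their side of the threshold. The number of the 8 genes called in NASH rose from 0 to 1 with DESeq2 and to 2 with sample quality weights (Insig1, -0.87, and Abcg1, 0.47), and the number called in NASH-CH against control fell from 2 to 1 when the groups were fitted alone and rose to 3 with library size only (Abca1). With 1 rat left out, these counts ran from 0 to 1 and from 1 to 2. Values that did not pass in any of these fits changed sign as follows. With library size only, Stard4 turned to 0.14 for NASH and 0.059 for NASH-CH, and Abcg8 to 0.12 for NASH. With sample quality weights, Abcg8 turned to 0.024 for NASH-CH against control and 0.067 against NASH. With 1 rat left out, the ranges were -0.23 to 0.058 for Stard4 and -0.38 to 0.10 for Abcg8 in NASH, and -0.046 to 0.22 for Srebf2 and -0.19 to 0.74 for Abcg5 in NASH-CH.

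The Abcg5 to Abcg8 ratio kept its direction under every alternative run. With 1 added to CPM, the difference was 0.50 in NASH-CH against control (adjusted exact permutation p = 0.152) and -0.50 against NASH (0.0974). With 1 rat left out, it ran from 1.06 to 1.44 in NASH, from 0.65 to 1.03 in NASH-CH and from -0.49 to -0.33 between them. With library size only, the number of correlated pairs rose from 1 to 3. The cause of these changes was not tested.

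Whether replicate numbers pair the rats is not known. Deviations of same-numbered rats correlated between -0.12 and 0.17, and 3 of 18 were above 0.1. Rats with different numbers were not correlated for reference, so these values cannot decide it. With the replicate block, no call among the 8 genes changed. For the ratio differences of 1.21, 0.80 and -0.41, a sign-flip test of the 6 same-numbered differences gave adjusted p of 0.0938, 0.0938 and 0.125. With 6 pairs, this test cannot reach p values as small as those of the permutation of rats. In NASH against control every same-numbered difference was above 0, which gives the smallest unadjusted p the sign-flip test can reach. Over all genes, calls in NASH went from 403 to 652 with edgeR, 1228 with DESeq2, 865 with library size only, 268 without a filter, 644 with the groups alone and 1509 with sample weights. In NASH-CH against control, 2192 became 5495 without a filter and 1408 with the groups alone, and in NASH-CH against NASH, 542 became 949 with DESeq2, 2649 without a filter and 349 with the groups alone. With 1 rat left out, these counts over all genes ran from 128 (without control rat 3) to 982 (without control rat 6) for NASH, from 1519 to 2409 for NASH-CH against control and from 346 (without NASH rat 3) to 591 against NASH, and the share of all genes called moves with them. Over the settings other than leaving out a rat, the synthesis enzymes called numbered 11 to 18 for NASH and 6 to 12 for NASH-CH against control. Their lower numbers in NASH with 1 rat left out are given with the enzymes above. Depth limits Abcg8 and Mylip most.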
